A study of Drosophila melanogaster with 2 samples.

Results

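The genes described here are 38 Drosophila melanogaster genes of early neurogenesis, chosen by name, out of 13968 protein-coding genes on the chromosome arms. They are the Notch receptor and its ligand Delta, 4 proneural genes of the achaete-scute complex, 6 other neural transcription factor genes, 5 genes of asymmetric neuroblast division, 2 glial genes, 5 temporal genes of neuroblasts, 3 genes of the neural columns and the midline, and 11 Notch target genes of the Enhancer of split complex, E(spl)-C. The data are chromatin immunoprecipitation with sequencing (ChIP-seq) of D19B, a zinc-finger protein, carrying a GFP tag at its C terminus in a stable transgenic line. Chromatin came from whole embryos of mixed sex aged 0 to 24 h, was sonicated to 200 to 800 bp and was precipitated with an antibody to GFP by the description in the labels, although another label field gives the antibody as D19B. Both libraries, numbered as biological replicates 2 and 3, belong to the same group, so nothing was compared between conditions and no p-value is given. Whole embryos hold neural and non-neural cells of all embryonic ages together, so the cells in which a peak arose cannot be told apart.

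A peak here is an entry of the authors' list of 4309 regions that passed an irreproducible discovery rate (IDR) step, which weighs how well ranks repeat between libraries, and a summit is the highest position of a peak. Signal is the authors' own value for each region against their control, and it ranked regions within a list. It ran from 117 to 15866 over the list, with a median of 199.5. For each library and for both together the authors also deposited a longer list of 30000 regions, peaks and background mixed. These lists were not scaled to each other and read depth is unknown, so a value of replicate 2 beside that of replicate 3 shows whether a region was listed in each, not a difference in occupancy. The signals of the 4309 peaks equalled the 4309 highest signals in the list of both libraries. A single peak therefore need not be listed in each library, and 86.7% of peaks had a summit within 100 bp in both. Over all peaks the replicate 2 value was the higher, with a median ratio of 1.91. The libraries also listed different numbers of regions at the genes described here, as given at the end.

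In the neuroectoderm, proneural transcription factors make groups of cells competent to become neuroblasts. Delta on the chosen cell activates Notch in its neighbours, where Su(H), the DNA-binding factor of the pathway, switches on the E(spl)-C genes that repress proneural activity. The neuroblast then divides asymmetrically, sends fate determinants into its smaller daughter, and passes through a fixed series of temporal transcription factors that set which neurons or glia it makes.

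The sequences at 8 summits are shown because the counts below turn on them: the summits at the start sites of numb and E(spl)m3-HLH, and the tallest summit inside brat, sim and N. A further pair, the tallest at E(spl)-C and the summit past vnd, was chosen after values were seen. Each is the dm6 plus strand, 5′ to 3′, with 50 bases on either side of the summit. Capitals mark matches, on either strand, to the E-box CANNTG, the word GAGAG bound by the Trl protein, the core promoter word TATAAA, the word CGATA or the word ACAGGGTA.
numb intron, beside its internal start site (chr2L:9449636-9449736): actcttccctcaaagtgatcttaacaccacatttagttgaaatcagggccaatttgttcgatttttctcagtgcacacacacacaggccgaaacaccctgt
brat intron (chr2L:19165108-19165208): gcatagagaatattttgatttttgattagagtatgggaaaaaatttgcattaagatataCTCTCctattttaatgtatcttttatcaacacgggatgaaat
sim intron (chr3R:13068185-13068285): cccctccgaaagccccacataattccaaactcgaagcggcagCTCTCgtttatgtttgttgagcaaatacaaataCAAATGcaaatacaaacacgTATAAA
E(spl)m3-HLH upstream, farther summit (chr3R:26021294-26021394): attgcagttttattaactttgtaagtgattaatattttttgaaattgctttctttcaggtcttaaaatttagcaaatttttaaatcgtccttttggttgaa
E(spl)m3-HLH upstream, nearer summit (chr3R:26021493-26021593): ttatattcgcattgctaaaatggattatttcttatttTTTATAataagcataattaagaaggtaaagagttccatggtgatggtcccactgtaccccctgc
gro intron, past the E(spl) complex (chr3R:26042442-26042542): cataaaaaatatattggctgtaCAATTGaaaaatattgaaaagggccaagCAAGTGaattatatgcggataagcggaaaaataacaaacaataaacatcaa
spdi intron, just past vnd (chrX:598538-598638): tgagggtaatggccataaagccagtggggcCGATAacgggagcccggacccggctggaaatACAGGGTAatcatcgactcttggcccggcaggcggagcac
N intron (chrX:3162473-3162573): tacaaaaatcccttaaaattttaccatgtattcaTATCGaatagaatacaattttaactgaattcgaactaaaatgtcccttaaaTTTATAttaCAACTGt
The windows of numb and of the farther E(spl)m3-HLH summit held no match to any motif searched. The gro window held CANNTG as CAAGTG, starting at the summit base. The vnd window was the only 1 of the 34 at these genes with ACAGGGTA, a word taken from an earlier analysis of all peaks.

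Few of the neurogenesis genes had a D19B summit at a start site. A summit lay within 500 bp of an annotated transcription start site (TSS) at 2 of 38, numb and E(spl)m3-HLH, against 15.3% of all protein-coding genes. A summit lay inside the gene at 6 of 38, namely N, brat, grh, insc, numb and sim, against 11.6% of all. A summit lay within 10 kb of 24 of 38 genes, against 58.2% of all. Outside E(spl)-C, whose neighbouring genes share summits, it was 14 of 27. The count at start sites depended on its window: with 200 bp only numb remained, and with 1000 bp brat was added.

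Longer genes have more room for a summit, so the counts were also read by length class. Of 15 genes under 2 kb, 0 had a summit inside and 11 had a summit within 10 kb, against 1.91% and 50.4% of all genes of that class. These 15 are not separate cases, since 11 of them are E(spl)-C genes. Of those, 10 had a summit within 10 kb, through 6 shared summits. Of 13 genes from 2 to 20 kb, 1 had a summit inside and 7 had one within 10 kb, against 15.2% and 63.9%. Of 10 genes over 20 kb, 5 had a summit inside and 6 had one within 10 kb, against 50.5% and 71.6%. The long genes without any summit within 10 kb were Delta, pdm2, nub and svp.

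Of 4 functional classes set side by side, the proneural genes had the lowest count within 10 kb and the Notch targets the highest. The Notch target count rests on 6 shared summits, of which 2 lay at TSSs of gro. Of the 4 proneural genes 0 had a summit at a TSS, inside the gene or within 10 kb. Of the 11 Notch targets 10 had a summit within 10 kb, but 0 had 1 inside and 1 had it at a TSS. Of the 5 temporal genes 2, cas and grh, had a summit within 10 kb and only grh had it inside. Of the 5 asymmetric division genes 4 had a summit within 10 kb, 3 inside and 1 at a TSS. The classes are small, neighbouring E(spl)-C genes share summits, and median gene length was 1267.5 bp for proneural genes, 957 bp for Notch targets, 40511 bp for temporal genes and 26716 bp for asymmetric division genes. Over all protein-coding genes the shares were 15.3% at a TSS, 11.6% inside and 58.2% within 10 kb. Of genes under 2 kb, 1.91% had a summit inside and 50.4% within 10 kb. Of genes over 20 kb it was 50.5% and 71.6%. The class counts are a description and were not tested against each other.

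**Figure D1:**
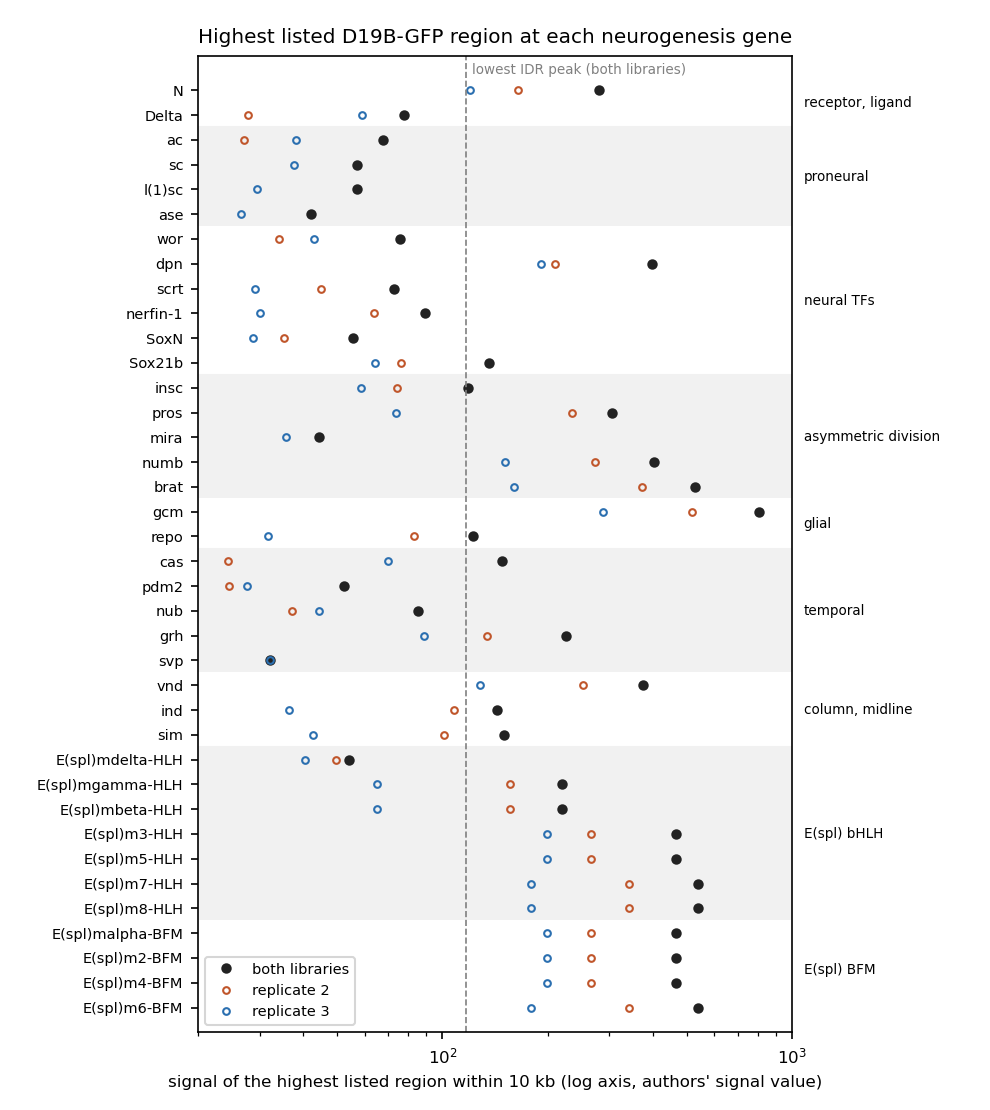
For each of the 38 genes, the signal of the highest listed region in the gene or within 10 kb, on a log axis, in the list of both libraries (filled) and of replicate 2 and replicate 3 (open). The dashed line marks the lowest peak of the IDR list, and the 4 proneural genes lie to its left at 42.2 to 67.5, while 10 of 11 E(spl)-C genes lie to its right at 220.2 to 538.3.

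The plot of the highest listed region by gene gives every gene a value, also the 14 without a peak. In the list of both libraries these highest values ran from 32.1 at svp to 803.8 near gcm, with a median of 148.8, beside 166.1 over all genes with a listed region. In replicate 2 a region was listed at 33 of the 38 genes and the median was 156.1, beside 118.6 for all genes. In replicate 3 all 38 had a listed region and the median was 64.7, beside 54.5. The medians of these genes were therefore slightly below that of all genes in the joint list and above it in each library. They count a region shared by several E(spl)-C genes once per gene. The replicate 2 median is itself the value of a region shared by E(spl)mgamma-HLH and E(spl)mbeta-HLH. Genes without a listed region in replicate 2 are left out of its median. No shift in height is read from these medians. The lowest peak of the IDR list had a signal of 117.13 and the next listed region 117.11, so membership of the list ends within a continuous range.

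Among receptor and ligand, the peaks lay deep in the receptor gene. N, which encodes the Notch receptor on X, held 2 summits in its introns. The taller, at 3162523, had a signal of 279.9 in the joint list, 164.3 in replicate 2 and 120.2 in replicate 3. The other, at 3157506, had 134.5, 96.4 and 40.2. Both were listed in each library, and they lay 27653 and 22636 bp downstream of the only annotated TSS of N. The TSS of N itself had a listed region of 89.9 in the joint list, below the IDR list. Delta, the ligand gene on 3R, had no peak within 10 kb. Its highest listed region had 77.4 in the joint list, 27.7 in replicate 2 and 58.8 in replicate 3.

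The proneural genes ac, sc and l(1)sc, which encode basic helix-loop-helix (bHLH) activators, and ase, which encodes their relative in neural precursors, had no listed region within 10 kb as high as a peak. Their highest listed regions in the joint list had 67.5 at ac, 57.0 at sc and at l(1)sc, which share it, and 42.2 at ase. In replicate 2 a region was listed at ac only, with 27.0, and in replicate 3 the values were 38.0, 37.5, 29.5 and 26.5. From the start of ac to the end of ase, 93146 bp of X held 1 summit of the IDR list. Windows of this length with at least 1 summit made up 75.2% of 1434, with a mean of 3.00 summits. The complex held 9 listed regions of the joint list, against a median of 20 per window, but the libraries differed widely, with 2 regions in replicate 2 and 29 in replicate 3. The summit, at 437585, had 261.3 in the joint list, 157.0 in replicate 2 and 93.4 in replicate 3. It lay in an intron of CG32816, 137 bp upstream of a TSS of Pgcl, 26768 bp past l(1)sc and 23162 bp before ase, so it counted for none of the 4 genes.

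At the Notch target genes, 5 of 6 peaks lay between genes, against 36.1% of all peaks, and the other lay in an intron of gro. A summit lay inside 0 of the 11 targets. All are under 2 kb, a length class in which 1.91% of all genes had a summit inside. E(spl)-C spans 43388 bp of 3R and holds 7 bHLH repressor genes and 4 Bearded family (BFM) genes, whose products restrain the ubiquitin ligase Neuralized. Within it lay 4 summits of the IDR list. Windows of this length with at least 4 made up 12.4% of 3082, with a mean of 1.40. The joint list held 20 regions there, against a median of 9 per window, with 12 in replicate 2 and 24 in replicate 3.

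Of the 6 summits within 10 kb of an E(spl)-C gene, 3 lay upstream of E(spl)m3-HLH. At 26021344, 479 bp before its TSS, the signal was 467.0 in the joint list, 265.3 in replicate 2 and 199.6 in replicate 3. At 26021543, 280 bp before the TSS, it was 281.7, 96.8 and 119.1. At 26020441, 1382 bp before the TSS, it was 153.3, 86.5 and 64.6. All 3 were listed in both libraries, and the summit at 26021543 was among the few with the higher value in replicate 3. The summit at 26021344 also lay 268 bp upstream of the TSS of lncRNA:CR43644, a non-coding RNA gene, so it could be counted for either gene. Within 10 kb these summits also counted for E(spl)m5-HLH, E(spl)malpha-BFM, E(spl)m2-BFM and E(spl)m4-BFM.

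**Figure D2:**
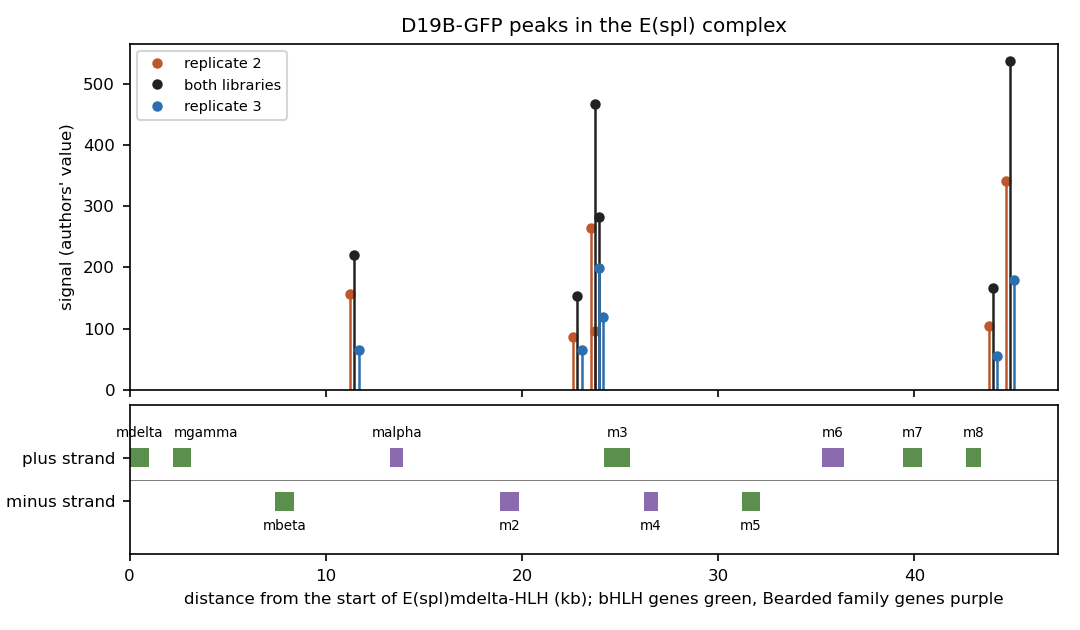
Signal of the 6 summits at the E(spl) complex (upper panel, authors' value, linear from 0) against distance in kb from the start of E(spl)mdelta-HLH, with the genes by strand below. Sticks of replicate 2 and replicate 3 are set slightly left and right of the joint value so that all are visible; the 3 clusters lie upstream of malpha, upstream of m3 and past m8, where the tallest reaches 538.3.

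At the left of the complex, a summit at 26009070 lay 1823 bp upstream of E(spl)malpha-BFM, with 220.2 in the joint list, 156.1 in replicate 2 and 65.1 in replicate 3. It was the only summit within 10 kb of E(spl)mgamma-HLH and E(spl)mbeta-HLH, at 8309 and 3047 bp. Past the right end, summits at 26041634 and 26042492 lay 626 and 1484 bp beyond E(spl)m8-HLH and were the only ones for E(spl)m6-BFM, E(spl)m7-HLH and E(spl)m8-HLH. The first had 167.1, 104.2 and 55.8 in the joint list, replicate 2 and replicate 3. The second had 538.3, 341.6 and 178.7 and ranked at 500 of the list. Both lay at TSSs of gro, 102 and 149 bp upstream, the second in a gro intron. The tallest peak near the right-hand E(spl) genes was therefore beside an internal TSS of gro, which encodes the corepressor that E(spl) bHLH proteins recruit. E(spl)mdelta-HLH, at the left edge, had no peak within 10 kb and a highest listed region of 53.9 in the joint list, 49.5 in replicate 2 and 40.4 in replicate 3. E(spl)m7-HLH had a listed region at its TSS in replicate 3 with 65.8 and none there in replicate 2.

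Among the genes of asymmetric division, brat had 7 summits within 10 kb, numb 2, insc 1, pros 1 and mira 0. The gene brat, which encodes a translational repressor inherited by the smaller daughter of the neuroblast, had 6 summits inside its 45943 bp and 1 before its start. At least 6 summits inside was met by 3.82% of protein-coding genes over 20 kb. The tallest, at 19165158 on 2L, had 529.5 in the joint list, 372.9 in replicate 2 and 160.7 in replicate 3, and lay 709 bp upstream of the internal TSS at 19165867. The next were at 19146373, with 377.6, 230.5 and 149.5, and at 19141953, with 311.0, 194.7 and 118.7. These 3 stood at ranks 454 to 1264 in the lists of the separate libraries. Of the lower 3, the summit at 19156542 had 152.4, with 69.6 in replicate 2 and 92.2 in replicate 3, the summit at 19141030 had 138.7, with 97.3 in replicate 2 and none in replicate 3, and the summit at 19146578 had 118.2, with 87.9 and 24.8. The summit before the gene, with 134.0, lay 152 bp upstream of AsnRS, a transfer RNA synthetase gene. The highest region at any TSS of brat had 101.9, below the IDR list.

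**Figure D3:**
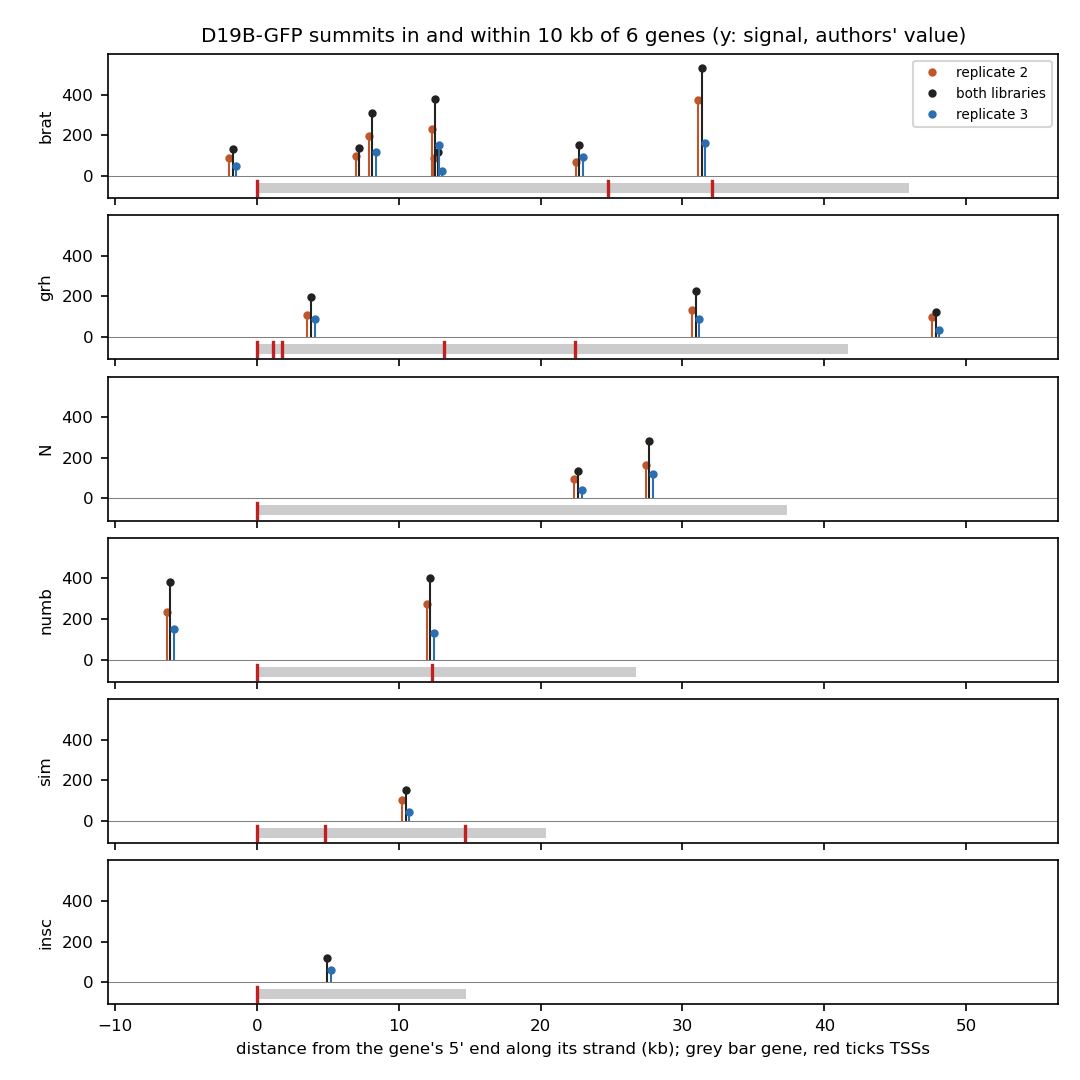
Signal of the summits in and within 10 kb of the 6 genes with a summit inside (authors' value; replicate 2 and replicate 3 set slightly left and right of the joint value) against distance in kb from each gene's 5′ end. Grey bars are the genes and red ticks their TSSs; 6 summits lie along brat, and only the summit in numb falls beside a red tick.

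The gene numb, which encodes an inhibitor of Notch segregated to the same daughter, had a summit at 9449686 on 2L, in an intron and 144 bp upstream of its internal TSS at 9449830. The joint list gave it 401.8, at rank 790, with 272.5 in replicate 2 and 131.0 in replicate 3. A second summit, 6121 bp before the gene at 9431348, had 381.9, 234.2 and 151.1, and lay 57 bp from the TSS of scat. Of the pair, only the first is at a start site of numb, and not at its most upstream one. The gene insc, whose product orients the spindle, held 1 intronic summit at 20831071 on 2R with 118.3 in the joint list, none in replicate 2 and 58.5 in replicate 3. It was near the floor of the list and sat in a stretch shared with sktl, 1347 bp from that gene's TSS. The gene pros, whose homeodomain product promotes differentiation, had no summit in its 79148 bp. The peak counted for it, with 305.5, 234.8 and 73.9, lay 2317 bp past its end and 69 bp from the TSS of mgr. The gene mira, which encodes the adaptor that carries Prospero and Brat, had no peak, and its highest listed region had 44.3, with none in replicate 2 and 35.6 in replicate 3.

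Of the temporal genes, grh, which encodes a late factor of the series, held 2 intronic summits on 2R. At 17832060 the signal was 226.2 in the joint list, 134.4 in replicate 2 and 88.3 in replicate 3, and at 17804941 it was 196.9, 106.2 and 88.5. Both were listed in each library, at 8495 and 2074 bp from the nearest of 5 TSSs of grh. A lower summit 6161 bp past the gene had 125.4 and lay in an intron of Orai. The peak counted for cas, a zinc-finger factor gene, had 148, none in replicate 2 and 69.8 in replicate 3, and lay in an intron of plx, 7311 bp past cas. No peak lay within 10 kb of pdm2 and nub, which encode POU factors, or of svp, which encodes a nuclear receptor. Their highest listed regions in the joint list had 52.2, 85.4 and 32.1.

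Among the other neural transcription factor genes, 4 of 6 had no peak within 10 kb, beside 5843 of all 13968 protein-coding genes. The 4 were wor and scrt, of the Snail family of zinc-finger genes, nerfin-1, another zinc-finger gene, and SoxN, an HMG-box gene. Their highest listed regions had 75.9, 72.7, 88.9 and 55.6. The gene dpn, which encodes a Hairy-related repressor of neuroblasts, had 3 summits upstream, none closer than 5106 bp. The tallest, at 8242286 on 2R, had 397.1 in the joint list, 210.2 in replicate 2 and 191.5 in replicate 3, and lay 269 bp from the TSS of lncRNA:CR44276, 9956 bp from dpn. The summit between them in height, at 8241563, had 238.5, 137.7 and 98.8, beside the same non-coding RNA gene. The closest, with 162.4, none and 70.2, lay in pnut, 165 bp from its TSS. For Sox21b the peak, with 135.7, 76.0 and 64.3, lay 773 bp past its end, 3514 bp upstream of Sox21a.

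The highest signal counted for any of the 38 genes was at gcm, the glial switch gene, but it lay at a neighbour. The summit at 9570082 on 2L had 803.8 in the joint list, 516.8 in replicate 2 and 289.0 in replicate 3, ranked at 252, and lay 189 bp upstream of a TSS of brwl, in its intron and 9416 bp past gcm. A lower summit of the same region, at 9570289, had 199.9 and was listed in neither library. It lay 18 bp downstream of a TSS of brwl. The peak counted for repo, the glial homeodomain gene, had 122.6, 83.1 in replicate 2 and none in replicate 3, and lay in an intron of 14-3-3epsilon. Neither glial gene had a summit inside or at its TSS.

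All 3 column and midline genes had a peak within 10 kb, beside 58.2% of all protein-coding genes. Only sim had 1 inside, beside 11.6% of all. The gene sim, which encodes the bHLH-PAS regulator of the midline, held 1 intronic summit at 13068235 on 3R with 149.7 in the joint list, 101.2 in replicate 2 and 42.8 in replicate 3, 4164 bp from its nearest TSS. The gene vnd, which encodes the homeodomain factor of the ventral column, had 2 summits past its end on X, both in an intron of spdi. At 600342 the signal was 374.9, 252.0 and 128.3, and at 598588, 437 bp past vnd, it was 122.6, 107.9 in replicate 2 and none in replicate 3. For ind, the homeodomain gene of the intermediate column, the peak had 143.4, 108.3 and 34.1 and lay 242 bp upstream of a TSS of Sytbeta, 8361 bp past ind.

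Counted without repeats, the 24 genes with a peak had 34 distinct peaks in 53 pairs of gene and peak, since all 6 peaks at E(spl)-C counted for several genes. Their signal ran from 118.2 to 803.8 with a median of 198.4, and 50.4% of all 4309 peaks were above that median. The 6 at E(spl)-C had a median of 251.0 and the other 28 a median of 179.6. A summit was listed within 100 bp in both libraries for 27 of 34, against 86.7% of all peaks. Of the rest, 3 were listed in replicate 2 only, 3 in replicate 3 only and 1 in neither. Where both listed it, the value of replicate 2 was the higher at 25 of 27, with a median ratio of 1.79.

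Most of these peaks lay nearer to the start sites of other genes. The nearest TSS was that of a gene described here for 10 and of another gene for 24. The other genes include non-coding RNA genes, beside E(spl)m3-HLH and upstream of dpn. No background share was computed for how often peaks near a set of genes lie nearer to others. These counts are therefore not read as particular to these genes. A summit lay within 500 bp of any TSS for 14 of 34, against 44.6% of all peaks, and for 11 of these 14 only other genes had that TSS. Introns held 21 of 34 summits, against 52.0% of all peaks, and 13 of the 21 were introns of a listed neurogenesis gene. Between genes lay 11, against 36.1%, and 5 of these 11 were at E(spl)-C. Coding exons held 0. The median GC content of the summit with 50 bases on either side was 30.7%, beside 32.7% for all peaks.

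Binding motifs of Notch and proneural factors were rare in these windows, as they were in all peaks. Su(H) words (CGTGGGAA, CGTGAGAA, TGTGGGAA or TGTGAGAA) were found in 0 of 34 windows, each of the summit and 50 bases on either side, against 0.951% of all peaks. The proneural E-boxes GCAGGTG and GCAGCTG, which contain CANNTG, were found in 0, against 1.51%, and CANNTG in 7, against 33.5%. The N-box CACNAG, a site of E(spl) bHLH repressors, was found in 3, against 9.12%. CGATA was found in 7, against 13.3%, and TATCGATA, the site shared by the factors BEAF-32 and DREF, which contains CGATA, in 0, against 0.998%. GAGAG was found in 4, against 8.73%, TATAAA in 6, against 22.5%, CAGGTAG, the site of the early activator Zelda, in 0, against 0.557%, and ACAGGGTA in 1, against 2.97%. All were searched on both strands. A match is a string of letters and not a bound site, and counts this small do not separate these peaks from all others.

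Other genes of the same pathways, in 3 lists drawn up with earlier results of these data known, were counted in the same way. Apart from gro, the nearest TSS of any gene is not given for these lists, so a summit at a TSS may lie nearer to another gene. No summit lay inside aph-1, par-6, aurA or elav. Of 24 Notch pathway genes 4 had a summit at a TSS, 5 inside and 15 within 10 kb, beside 15.3%, 11.6% and 58.2% of all protein-coding genes. Those at a TSS were gro, described above, aph-1, a subunit gene of the gamma-secretase that cleaves Notch, Su(dx), a ubiquitin ligase gene, and neur, which encodes Neuralized. The summits at TSSs of gro were also counted above for E(spl)-C genes. The signal at aph-1 was 418.9 in the joint list, 249.4 in replicate 2 and 156.5 in replicate 3. That at Su(dx) was 308.6, 213.9 and 99.1, and that at neur was 258.4, with 179.3 in replicate 2 and none in replicate 3. The nuclear coactivator gene mam held 8 summits in 69154 bp and the protease gene kuz 4 in 89273 bp, with none at a TSS. Of all genes over 20 kb, 50.5% had a summit inside. Su(H) and its corepressor gene H had no summit within 10 kb.

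Of 14 genes of the asymmetric division machinery, 6 had a summit at a TSS, 7 inside and 9 within 10 kb, beside the same 15.3%, 11.6% and 58.2% of all genes. Several are long, such as baz, dlg1, scrib and cno, and of all genes over 20 kb 50.5% had a summit inside. The highest was at dlg1, a basolateral scaffold gene, with 609.4 in the joint list, 388.1 in replicate 2 and 221.1 in replicate 3. At par-6 and aPKC, of the apical Par complex, the signals were 268.5 and 155.3. At loco, a regulator of G-protein signalling, cno, an adherens junction scaffold gene, and aurA, a mitotic kinase gene, they were 155.6, 149.1 and 148.4, and the summit at aurA was not listed in replicate 2. The polarity genes baz, l(2)gl, scrib and pins and the mitotic genes mud and polo had no summit at a TSS.

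Of 25 other regulators of neuroblasts and neurons, 4 had a summit at a TSS, 3 inside and 13 within 10 kb, which is near the 15.3%, 11.6% and 58.2% of all genes. The neuronal RNA-binding gene elav had 871.4 in the joint list, 560.8 in replicate 2 and 315.0 in replicate 3. The zinc-finger gene lola, an axon guidance regulator, had 470.3, 294.0 and 182.5. The gene da, which encodes the bHLH partner of the proneural proteins, had 257.7, with 189.7 in replicate 2 and none in replicate 3, and the ETS factor gene pnt had 127.9, 65.2 and 52.0. No summit lay within 10 kb of ato, a proneural gene of sense organs, and 1 lay near amos, another. The early temporal genes hb and Kr had none within 10 kb.

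**Figure D4:**
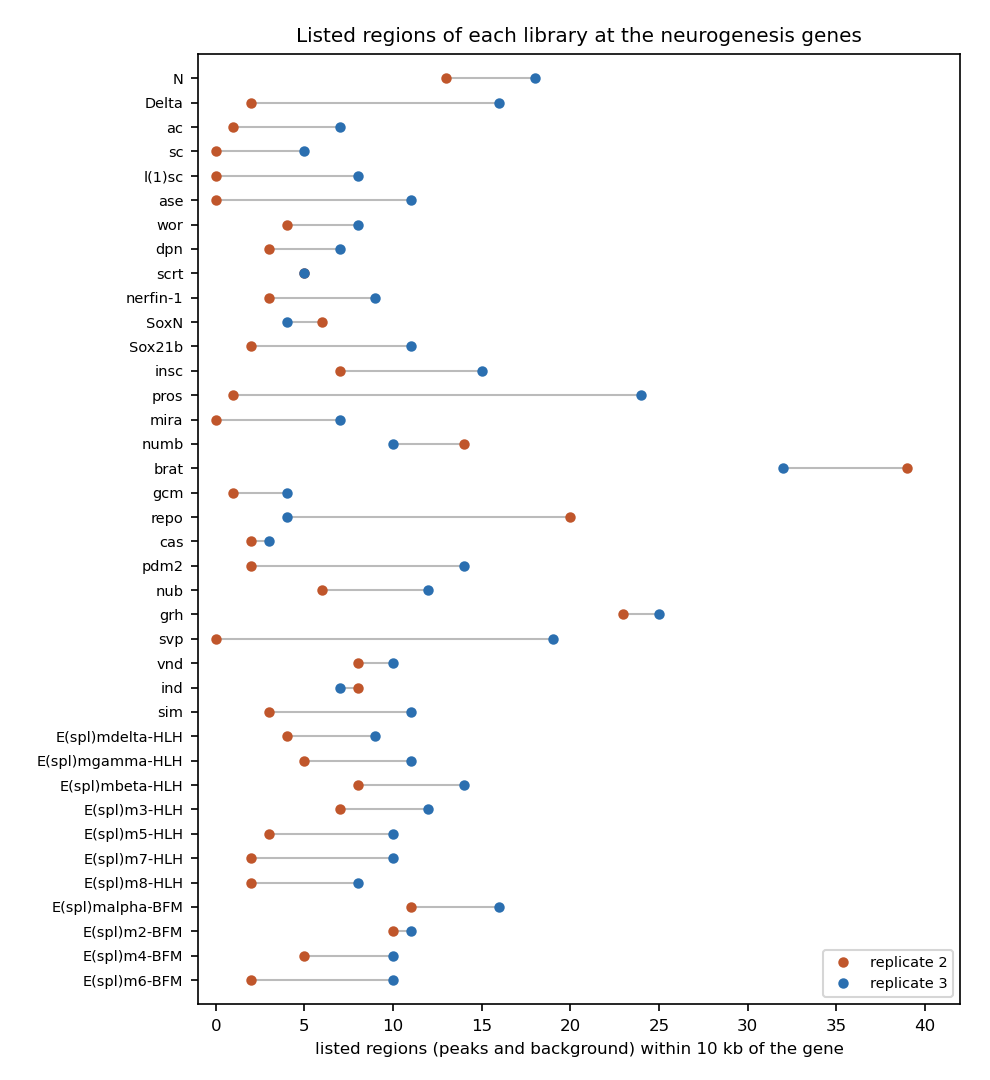
Number of listed regions, peaks and background together, in the gene or within 10 kb for each of the 38 genes in the list of replicate 2 and of replicate 3, each of 30000 regions. Replicate 3 is to the right at 32 genes, with the widest gaps at pros and svp, and replicate 2 is to the right at 5, with the widest gap at repo.

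The libraries differed in how many regions they listed at these genes, a comparison chosen after the data were seen. Replicate 3 listed more regions than replicate 2 at 32 of 38 genes, against 35.3% of all protein-coding genes, the same number at 1 and fewer at 5. Outside E(spl)-C, whose genes share regions, it listed more at 21 of 27. The median number per gene was 3.5 in replicate 2 and 10 in replicate 3, beside 6.0 and 5.0 over all genes. Without repeats the genes had 187 regions in replicate 2 and 334 in replicate 3. Replicate 3 had at least 10 more at 5 genes, against 1.47% of all: 0 and 19 regions at svp, 1 and 24 at pros, 2 and 16 at Delta, 2 and 14 at pdm2, and 0 and 11 at ase. Of the 10 genes over 20 kb this was so at 4, against 13.8% of all genes that long. Replicate 2 had at least 10 more at 1 gene, against 5.39% of all, with 20 and 4 regions at repo.

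The regions behind these counts had a median signal of 34.2 in replicate 2 and 22.2 in replicate 3, beside list minima of 20.04 and 16.21. With the 15000 highest regions of each library, replicate 3 had more at 33 of 38 genes, beside 31.7% of all genes. With the 4309 highest, it had more at 12, fewer at 6 and the same number at 20, beside 15.5% with more and 26.7% with fewer over all genes. The difference was seen with 1 library on each side, and its cause was not tested.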

How the data were processed

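ChIP-seq of D19B-GFP in whole embryos gave 2 libraries in 1 group. Regions were called by the authors, per the deposited file records, for each library and for both together on dm6, and an IDR step then gave the final list. No source used here names the aligner, the caller or the IDR threshold. The deposited signal is the authors' value against a control, not analysed here. The −log10 q value is likewise the authors', and was at least 2.88 in the IDR list. Read depth is unknown, so no interval was computed.

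Summits were placed on the genes of Ensembl release 115 (FlyBase 6.54) with transposable elements left out; positions are 1-based on dm6, and sequence is from release 6 of the assembly. Distances of 500 bp and 10 kb defined the counts, and summits of different lists within 100 bp were matched. The background was all 13968 protein-coding genes, all 4309 peaks, or windows tiling the arms. The named genes are every member, the genes of the 3 lists with a start-site summit and the gene nearest each peak; CG32816, Pgcl, spdi, mam, kuz, Su(H), H, baz, l(2)gl, scrib, pins, mud, polo, ato, amos, hb and Kr fall outside this rule and were chosen after values were seen. Members and lists were chosen with earlier results of these data known. Python 3.11.15, numpy 2.4.6, pandas 2.3.3 and matplotlib 3.10.9 were used, and the counting was tested on simulated data. The dm3 lists were not used.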

Additional observations from a re-analysis of the deposited data

How the results depend on the processing

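Of 46 alternative settings, 32 left the result within the spread or within 1.5 times and 14 moved it. The count of 2 genes with a start-site summit became 1 with a window of 200 bp, where the share of all genes was 9.26%, and 3 with 1000 bp (18.3%). Among the 2154 tallest peaks, distinct peaks fell to 17 with a median signal of 374.9, by construction. On a single library's list the median signal was 67.8 to 108.3, on other scales. Leaving out each replicate in turn gave 2 to 3 genes with a start-site summit. A summit lay inside 5 to 9 genes and within 10 kb of 21 to 25. The shares of all genes were 12.8%, 10.9% and 54.7% without replicate 2, and 16.3%, 11.7% and 58.2% without replicate 3. Without replicate 2, E(spl)m7-HLH was added at the TSS, and Delta, nub and pros inside. Within 10 kb, Delta, nub and wor were then added, and ind and repo lost. Without replicate 3, insc was lost inside, and Sox21b, cas and insc within 10 kb. Distances of 5 and 20 kb gave 17 and 30 genes, beside 43.6% and 75.2% of all. More regions in replicate 3 fell from 32 genes to 12 with the 4309 highest regions; that setting was chosen after seeing the data. Of 20 motif alternatives 8 moved, each with its window length. No paired analysis was possible because there is only 1 group. The limits are 2 libraries, unknown depth, a control not analysed here, mixed cells and stages, and assignment of peaks to genes by distance.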
